A study of Bos taurus with 6 samples.

Results

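AMP-activated protein kinase, AMPK, is an enzyme made of a catalytic alpha, a scaffolding beta and a nucleotide-binding gamma subunit, each encoded by more than 1 gene. The genes sought were the alpha genes PRKAA1 and PRKAA2, the beta genes PRKAB1 and PRKAB2, the gamma genes PRKAG1, PRKAG2 and PRKAG3, and STK11, which encodes the upstream kinase LKB1. They were taken by their symbols: a probe set counted where the platform annotation gave it exactly 1 symbol and that symbol was among the 8. Of the 8 genes 4 were found, PRKAA1, PRKAA2, PRKAB1 and PRKAG1, each with 1 probe set, among 9155 genes named in this way. PRKAB2, PRKAG2, PRKAG3 and STK11 carried no such name in the annotation used here and are not analysed here. Only the alpha class thus had more than 1 isoform with a named probe set.

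AMPK binds AMP and ADP when ATP is used up, and LKB1 phosphorylates the alpha subunit to switch the kinase on. The active kinase promotes glucose uptake, fatty acid oxidation and autophagy and restrains the synthesis of fatty acids, cholesterol and protein. In the skeletal muscle of humans and mice, PRKAA2, PRKAB2 and PRKAG3 are the isoforms known for their enrichment in muscle fibres, while PRKAA1, PRKAB1 and PRKAG1 are expressed in most tissues. The kinase is regulated mainly by nucleotides and phosphorylation, and an array reads only the transcripts.

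The animals were male cattle of the species Bos taurus, 3 Japanese Black steers and 3 Holstein steers, all given energy-rich feed, with the longissimus dorsi muscle of the back sampled and 1 Affymetrix array per animal. Japanese Black cattle are raised for beef with much fat inside the muscle, and Holstein cattle mainly for milk. The breeds were thus compared under the same feeding, without steers on another feed among the samples. The labels give neither ages nor pairs of animals. Animals are called Japanese Black 1 to 3 and Holstein 1 to 3, and the number only names an animal.

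The values are linear signals in intensity units, and the number of arrays limits their precision. The median signal per array was 48.5 to 54.7 in Japanese Black and 50.8 to 52.7 in Holstein, with the upper quartile at 205 in Japanese Black 3 and between 172 and 181 in the other arrays. The muscle markers named on the array, ACTA1, CKM, DES and MB, read at least 6083 in every animal, so the arrays show muscle RNA. Differences are given on the log2(signal + 16) scale as Japanese Black minus Holstein. That scale understates the change of dim probe sets. The brightness of a probe set depends on its probes as well as on its transcript, so the signals of different genes are not ranked against each other.

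PRKAA1, the catalytic alpha 1 subunit, read 55.4, 75.2 and 74.8 in the Japanese Black animals, against 91.95, 63.2 and 58.8 in the Holstein animals. The breeds overlapped, with the lowest signal in Japanese Black 1 and the highest in Holstein 1. The means were 68.5 ± 11.3 in Japanese Black and 71.3 ± 18.0 in Holstein (SD, n = 3 each). PRKAA1 was thus measured at a moderate signal, between the 52.9 and 62.7 percentile of all probe sets of an array.

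PRKAA2, the catalytic alpha 2 subunit, read 15.8, 0.05 and 2.97 in the Japanese Black animals, against 6.52, 4.23 and 7.24 in the Holstein animals. Every one of these signals was among the dimmest of its array, between the 1.95 and 23.9 percentile. The probe set was therefore left out of the test by the filter on dim probe sets. No detection call was used here, and whether this probe set measures PRKAA2 transcript at such signals was not tested.

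PRKAB1, the beta 1 subunit that joins the alpha and gamma subunits and binds glycogen, read 195, 264 and 260.3 in the Japanese Black animals, against 235, 214 and 296 in the Holstein animals. The breeds overlapped on both sides, with Japanese Black 1 lowest and Holstein 3 highest. The means were 239.6 ± 39.0 in Japanese Black and 248 ± 42.4 in Holstein (SD, n = 3 each).

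PRKAG1, the gamma 1 subunit that senses AMP, ADP and ATP, read 144, 152 and 179 in the Japanese Black animals, against 189, 184 and 202 in the Holstein animals. All 3 Japanese Black signals lay below all 3 Holstein signals, although Japanese Black 3 and Holstein 2, the neighbours across the breeds, were close. The means were 159 ± 18.1 in Japanese Black and 192 ± 8.92 in Holstein (SD, n = 3 each), so the Japanese Black mean was 82.8% of the Holstein mean. The order also held after quantile normalization, at 153, 155 and 159 in Japanese Black against 190.03, 185 and 213 in Holstein, and after median centring.

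**Figure D1:**
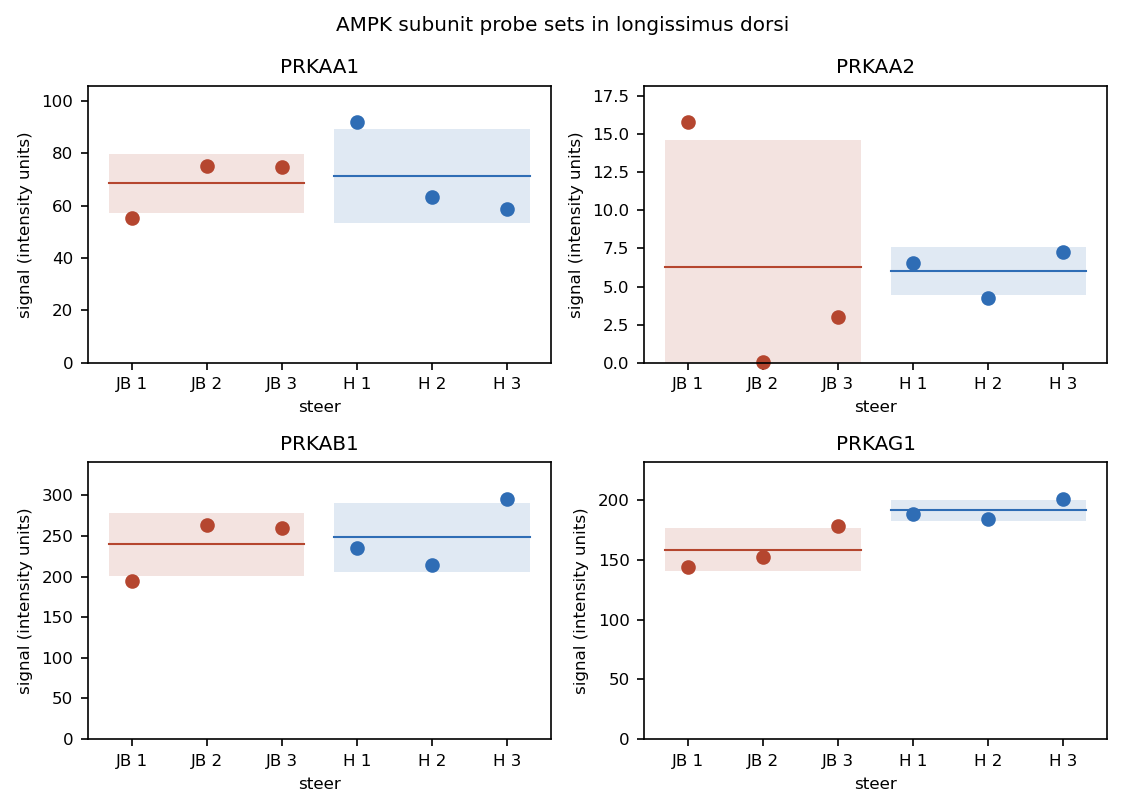
Signal of each AMPK subunit probe set in intensity units (vertical axis, from 0) in each steer (horizontal axis; JB, Japanese Black; H, Holstein); lines are breed means and bands are 1 SD, cut at 0. PRKAG1 was the gene whose breeds did not overlap, with 144 to 179 in Japanese Black and 184 to 202 in Holstein, and PRKAA2 stayed at or below 15.8 in all 6 animals.

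None of the 3 tested subunits differed between the breeds past an adjusted p of 0.05 in limma's moderated test over 18012 probe sets. PRKAG1 had a log2 difference of -0.25 (SE 0.16, 95% interval -0.62 to 0.11) with an adjusted p of 0.514. PRKAB1 had one of -0.05 (SE 0.19, interval -0.49 to 0.39) with an adjusted p of 0.932. PRKAA1 had one of -0.04 (SE 0.20, interval -0.49 to 0.41) with an adjusted p of 0.949. As folds of Japanese Black over Holstein the intervals ran between 0.652 and 1.08 for PRKAG1, 0.714 and 1.31 for PRKAB1 and 0.714 and 1.33 for PRKAA1. At an unadjusted p under 0.05 the count was also 0 of 3.

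Against the whole table, 0.0167% of the probe sets passed the adjusted threshold, which is 3 probe sets; that count lay between 0 and 15 when single animals were left out. An unadjusted p under 0.05 was reached by 12.6% of probe sets, and the breeds did not overlap for 19.8% of them, or for 8.84% with Japanese Black lower. The 1 of 3 subunits without overlap stands beside that background and is not a result about AMPK. A larger absolute difference than that of PRKAG1 was found in 38.5% of the probe sets tested, than that of PRKAB1 in 86.6% and than that of PRKAA1 in 89.4%. For PRKAA2, with means of 6.28 ± 8.38 in Japanese Black and 5.997 ± 1.57 in Holstein (SD, n = 3 each), no difference is read, since its signals lie below the added 16 and the offset sets the log2 value.

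**Figure D2:**
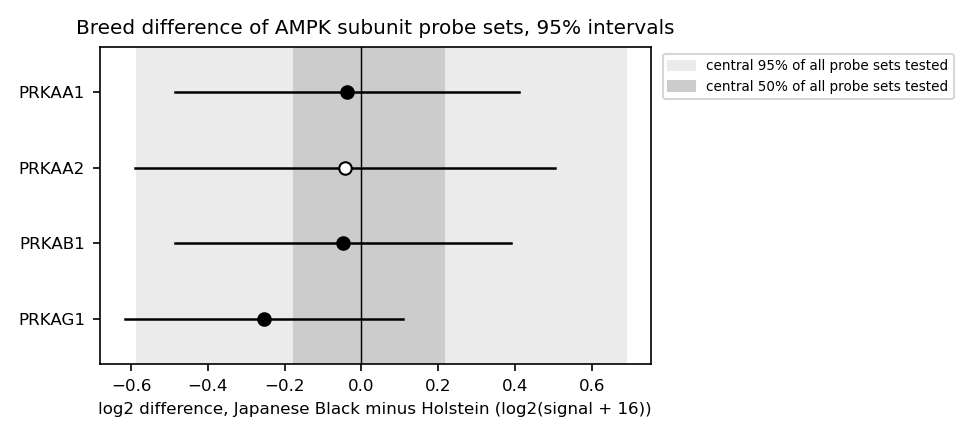
Log2 difference of Japanese Black minus Holstein (horizontal axis, log2(signal + 16)) for each AMPK subunit probe set, with limma's 95% interval; the open point is PRKAA2, taken from the fit without a filter and set by the offset, and the shaded ranges hold the central 50% and 95% of all probe sets tested. The interval of every subunit includes 0, and the point of PRKAG1 at -0.25 lies outside the central 50% of the table, which runs between -0.18 and 0.21.

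The balance of subunits within an array was compared through differences of log2(signal + 16) between 2 probe sets of the same array. The added 16 weighs most on dim probe sets, so a ratio with PRKAA2 depends on it. PRKAA2 minus PRKAA1, the only isoform ratio that could be formed within a class, averaged -1.98 ± 0.71 in Japanese Black and -1.97 ± 0.29 in Holstein (SD, n = 3 each). The difference was -0.01 with an exact two-sided permutation p of 1, where 3 against 3 animals allow no p below 0.10. All PRKAA2 signals lie below the offset, and the difference was -0.69 with an offset of 1 in place of 16 and 0.026 with one of 64. The Japanese Black SD came from Japanese Black 1, where the ratio was -1.17, against -2.51 in Japanese Black 2 and -2.26 in Japanese Black 3.

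Ratios between classes were added after the values were seen. PRKAG1 minus PRKAB1 was -0.39, -0.74 and -0.503 in the Japanese Black animals, against -0.29, -0.20 and -0.52 in the Holstein animals. The breeds overlapped, since Holstein 3 lay among the Japanese Black animals. Its difference was -0.21 (exact permutation p 0.3). PRKAG1 minus PRKAA1 had a difference of -0.22 (exact permutation p 0.4) and PRKAB1 minus PRKAA1 one of -0.01 (exact permutation p 1). Over the 4 ratios computed the smallest adjusted p was 0.8. PRKAB1 minus PRKAA1 was nearly the same in the Japanese Black animals, at 1.59 ± 0.03 against 1.61 ± 0.43 in the Holstein animals (SD, n = 3 each).

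The 3 tested subunits shared their lowest animal but not their highest. Japanese Black 1 read lowest for PRKAA1, PRKAB1 and PRKAG1, at 0.25, 0.29 and 0.24 below the log2 mean of the 6 arrays. Holstein 1 was highest for PRKAA1, at 0.34 above that mean, and Holstein 3 was highest for PRKAB1 and PRKAG1, at 0.28 and 0.20 above it. Between its highest and lowest animal the signal varied 1.66-fold for PRKAA1, 1.52-fold for PRKAB1 and 1.39-fold for PRKAG1. Within the breeds PRKAA1 varied 1.36-fold among Japanese Black and 1.56-fold among Holstein animals, and PRKAG1 1.24-fold and 1.09-fold.

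Adipocyte and smooth muscle markers spanned a wider range between the animals than the subunits did, with the smooth muscle list between -0.65 and 1.13. The neuron, erythrocyte, fibroblast and Schwann cell lists also spanned more than the tested subunits. A lower signal in such a bulk sample can come from fewer cells of a type or from less RNA per cell, and these cannot be told apart. The mean log2 level of 5 adipocyte genes, relative to the 6 arrays, was -0.68, -0.27 and 1.38 in the Japanese Black animals, against 0.19, 1.02 and -1.64 in the Holstein animals. The summed signal of these genes ranged between 3340 and 13369 in Japanese Black and between 1673 and 11700.0 in Holstein, with no gene at 0. PRKAG1 was highest within Japanese Black in the animal richest in adipocyte RNA, and highest within Holstein in the animal poorest in it. The muscle fibre, endothelial and leukocyte lists were, like PRKAG1, highest in Japanese Black 3 and Holstein 3 within their breeds. The part of cell makeup in the subunit signals was not tested.

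The fast-fibre level over 7 genes lay between -0.04 and 0.03 in the 6 animals. The slow-fibre level over 7 genes lay between -0.24 in Japanese Black 2 and 0.08 in Japanese Black 3, with Holstein at 0.07, 0.06 and 0.01. Their summed signals were 85983 to 87059 in Japanese Black and 85562 to 87775 in Holstein for the fast list, and 71306 to 81385 and 73213 to 75944 for the slow list. These means hold several markers with very high signals, such as MYL1 at 15004 to 16719, and single markers did separate the breeds. MYL3, a slow myosin light chain, read 3003, 1172 and 2447 in the Japanese Black animals, against 5590, 3917 and 5822 in the Holstein animals, a difference of -1.29 (SE 0.32, adjusted p 0.287). ACTN3, an actinin of the Z-disc in fast fibres, also did not overlap between the breeds, at -0.34 (SE 0.09, adjusted p 0.310). Other markers of these lists lay the other way, higher in every Japanese Black animal. They were MYL2 at 0.19, TNNC2 at 0.09 and TNNC1 at 0.06 (SE 0.08 each). Among all genes tested, the breeds did not overlap for 19.2%. The part of fibre type in the subunit signals was not tested.

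**Figure D3:**
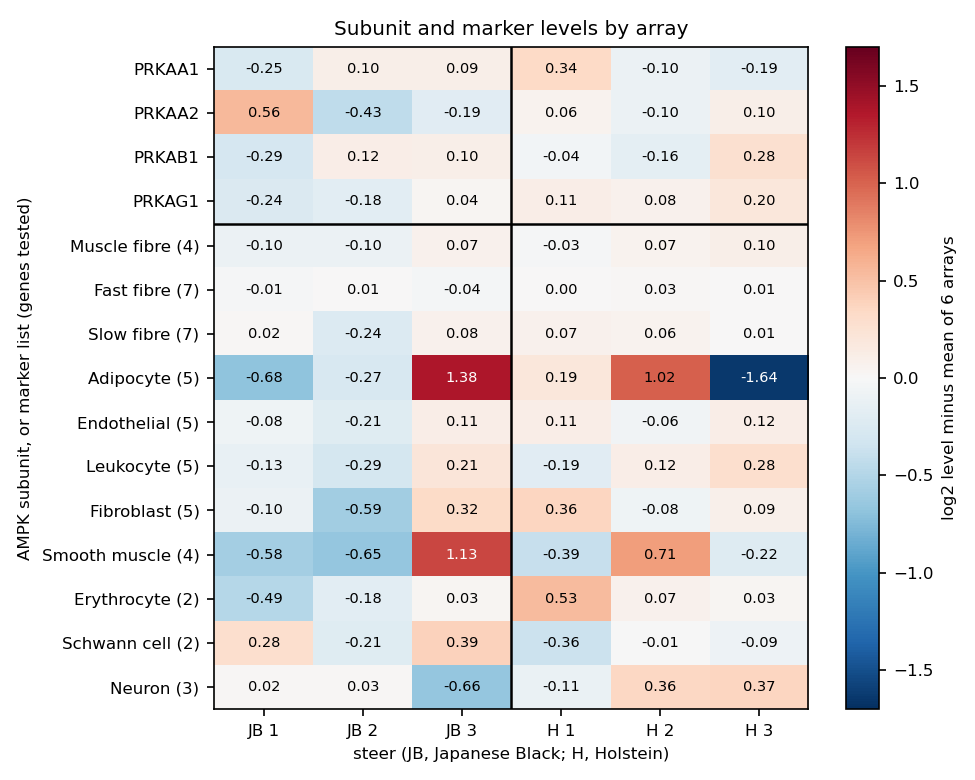
Log2 level minus the mean of the 6 arrays (colour and printed value) for each AMPK subunit and for the mean of each marker list (rows, with the number of genes tested), by steer (columns; JB, Japanese Black; H, Holstein). The adipocyte list spans -1.64 to 1.38, while PRKAA1, PRKAB1 and PRKAG1 stay within -0.29 and 0.34 in all 6 animals.

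The genes whose log2 values ran most like those of the subunits over the 6 arrays were sought among 10827 probe sets with 1 symbol. With so few arrays, high likeness is common: 209 probe sets had a Pearson r above 0.9 with PRKAG1, 95 with PRKAB1 and 47 with PRKAA1. Nearest to PRKAG1 were RPLP0 (r = 0.995) and RPSA (r = 0.990), both proteins of the cytosolic ribosome. RPLP0 read 3892, 4007 and 4696 in the Japanese Black animals, against 4799, 4793 and 5080.05 in the Holstein animals, without overlap between the breeds. RPSA read 4159, 4481.5 and 5309 against 5639, 5230 and 6071, with overlap. Both were picked for their likeness to PRKAG1, so their breed order is not a separate observation. Nearest to PRKAB1 were RAB11FIP5, an effector of RAB11 in membrane traffic (r = 0.989), and FUT10, a fucosyltransferase family member (r = 0.988). Nearest to PRKAA1 were DHRS12, a dehydrogenase family member (r = 0.984), and BZW1 (r = 0.978). These are descriptions over 6 arrays that share tissue and platform.

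The pathway around the kinase was covered by 6 lists. They were chosen with earlier results of these data known, so their counts of direction are descriptions and no test. They hold 89 genes, 59 with a name on the array and 56 with a tested probe set. Among those 56 genes the log2 difference was above 0, or higher in Japanese Black, for 38 and below 0 for 18. The median log2 difference was 0.08. Over all 8050 genes tested, at 1 probe set per gene, 3918 were higher and 4132 lower with a median of -0.01. By limma's test 0 of the 56 passed the adjusted threshold, and 7, or 12.5%, had an unadjusted p under 0.05, beside 11.3% of all genes. The breeds did not overlap for 8 of the 56, or 14.3%, beside 19.2% of all genes. The median of the 56 was 0.053 without Japanese Black 3, 0.14 without Holstein 2 and 0.029 after quantile normalization. Up to 3 genes with the smallest p in each list are described next, with others added for their roles after their values were seen, and the adjusted p values all lie above 0.05.

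LKB1 works in a complex with a STRAD pseudokinase, and TAB1 and CAMKK1 belong to other routes to AMPK. Of 8 genes in this list 4 were named and tested, with 1 higher, 3 lower and a median of -0.01. STRADB read 921, 1240.3 and 985 in the Japanese Black animals, against 1167, 906 and 1253 in the Holstein animals. Its breeds overlapped fully, with a difference of -0.08 (SE 0.18, adjusted p 0.873). STRADA and TAB1 had differences of -0.01 (SE 0.17) each, with adjusted p of 0.992 and 0.981. The 4 differences of the list spanned -0.08 to 0.003, and 0 had an unadjusted p under 0.05.

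Hormone inputs to AMPK in muscle include adiponectin and leptin. Of 10 genes 7 were named and 6 tested, 4 higher and 2 lower, with a median of 0.25. ADIPOR1, the adiponectin receptor through which AMPK is activated in muscle, read 1715, 1783 and 2160 in the Japanese Black animals, against 1397, 1429.6 and 1359.9 in the Holstein animals. The breeds did not overlap, and the Holstein animals lay close together. The difference was 0.42 (SE 0.14, interval 0.11 to 0.74) with an adjusted p of 0.333. ADIPOR2, the other adiponectin receptor, had a difference of -0.10 (SE 0.23).

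IL6R, the interleukin 6 receptor, had a difference of 0.68 (SE 0.36, adjusted p 0.459) at its brighter probe set, where the breeds overlapped, and it was 0.32 without Japanese Black 2 and 0.34 without Holstein 1. At its dimmer probe set it read 78.5, 136 and 88.6 in the Japanese Black animals, against 23.5, 57.0 and 59.4 in the Holstein animals, a difference of 0.93 (SE 0.29, adjusted p 0.321). LEP, leptin, read 58.9, 92.5 and 407 in Japanese Black, against 58.0, 239 and 18.6 in Holstein; it is itself 1 of the 5 genes of the adipocyte list. Its difference was 0.80 (SE 0.77, adjusted p 0.670), and leaving out Japanese Black 3 gave 0.055, Holstein 3 gave 0.13 and Holstein 2 gave 1.58. Leaving out Japanese Black 3 gave the list a median of -0.02, leaving out Holstein 3 gave -0.04 and leaving out Japanese Black 1 gave 0.53.

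Proteins that restrain or modulate AMPK were split in direction. Of 15 genes 8 were named and tested, 5 higher and 3 lower, with a median of 0.06. PPM1A, a PP2C-type phosphatase, read 2085, 2415 and 2688 in the Japanese Black animals, against 1612, 1886 and 1307 in the Holstein animals. Every Japanese Black animal lay above every Holstein animal, with a difference of 0.58 (SE 0.17, interval 0.20 to 0.97) and an adjusted p of 0.313. PPP2CA, a catalytic subunit of the phosphatase PP2A, lay the other way, at 1198, 1481 and 1350.4 in Japanese Black against 1757, 1607 and 1852 in Holstein.

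The PPP2CA difference was -0.37 (SE 0.14, interval -0.69 to -0.05) with an adjusted p of 0.362, without overlap of the breeds. PPP2CB, the other catalytic subunit of PP2A, had a difference of 0.04 (SE 0.14). CRBN, cereblon, which binds the alpha subunit, had a difference of 0.32 (SE 0.18, adjusted p 0.475) at its brighter probe set and -0.17 at its dimmer one. The difference at the brighter one was 0.17 without Holstein 3. Without Holstein 1 the median of the list was -0.01, and without Holstein 2 it was 0.16. It was -0.03 after quantile normalization and -0.07 over all 14 tested probe sets of the list.

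Among AMPK substrates, 21 of 28 genes were named and tested, with 17 higher and 4 lower and a median of 0.13. Over all genes tested 48.7% were higher. The list was chosen with earlier results of these data known, so its count is not read as a result about substrates. PPARGC1A, the coactivator of mitochondrial genes, read 129, 36.4 and 158 in the Japanese Black animals, against 62.8, 33.1 and 17.6 in the Holstein animals. At this brightest probe set Japanese Black 2 lay among the Holstein animals, and the difference was 1.11 (SE 0.46, interval 0.08 to 2.15) with an adjusted p of 0.383. The other tested probe sets of PPARGC1A were dimmer. Their differences were 0.88 (SE 0.30), with overlap, and 0.55 (SE 0.19), without overlap. CRY1, a clock repressor that AMPK marks for degradation, read 695, 774 and 668 in the Japanese Black animals, against 554, 542.5 and 378 in the Holstein animals. Its difference of 0.54 (SE 0.19, adjusted p 0.345) was free of overlap.

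PFKFB2, a bifunctional enzyme that sets fructose 2,6-bisphosphate, read 75.8, 62.0 and 119 in the Japanese Black animals, against 49.98, 60.8 and 29.3 in the Holstein animals. Japanese Black 2 and Holstein 2 lay next to each other, and the difference was 0.69 (SE 0.26, adjusted p 0.361). Its other tested probe sets had differences of 0.69 and 0.01, so they disagreed. ACACA, the acetyl-CoA carboxylase of fatty acid synthesis, was chosen after its values were seen because its breeds did not overlap at its brighter probe set. There it read 139, 138.7 and 109 in the Japanese Black animals, against 148, 163 and 203 in the Holstein animals, a difference of -0.36 (SE 0.18, adjusted p 0.436). At its dimmer tested probe set the breeds overlapped, with a difference of -0.25 (SE 0.25).

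ACACB, the carboxylase that controls entry of fatty acids into mitochondria and the AMPK target of muscle, had a difference of 0.42 (SE 0.33, adjusted p 0.595) with overlapping breeds. The glucose transport regulators TBC1D1 and TBC1D4 had differences of 0.04 (SE 0.19) and 0.27 (SE 0.22), and ULK1, the autophagy kinase, one of 0.16 (SE 0.20). The dimmer tested probe sets of TBC1D4 and ULK1 gave 0.04 and -0.09. The 21 genes held 3 with an unadjusted p under 0.05 by limma's test, or 14.3%, beside 11.3% of all genes. The breeds did not overlap for 3 of the 21, or 14.3%, beside 19.2% of all genes. The median was 0.05 without Japanese Black 3 and 0.04 after quantile normalization.

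Most AMPK-related kinases are also switched on by LKB1. Of 13 genes 7 were named and 5 tested, 2 higher and 3 lower, with a median of -0.05. MARK4, a microtubule affinity kinase, read 52.7, 49.3 and 41.0 in the Japanese Black animals, against 57.1, 60.9 and 71.8 in the Holstein animals. The breeds did not overlap, with a difference of -0.32 (SE 0.16, adjusted p 0.448). MARK2 had a difference of -0.31 (SE 0.18, adjusted p 0.496) at its brightest probe set and -0.12 and 0.09 at the others. Leaving out Japanese Black 3 gave -0.18 at the brightest one. MARK1 had a difference of 0.25 (SE 0.30, adjusted p 0.738), which was -0.10 without Japanese Black 3.

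Genes of glucose uptake and fatty acid oxidation, processes that AMPK promotes, had 12 of 15 members named and tested, 9 higher and 3 lower, with a median of 0.15. That median was 0.26 without Holstein 2 and 0.10 without Holstein 3. ACADM, a dehydrogenase of fatty acid oxidation, read 3283, 2976 and 3509 in the Japanese Black animals, against 2364, 2848 and 1806 in the Holstein animals. All Japanese Black animals lay above all Holstein animals, with a difference of 0.496 (SE 0.17, adjusted p 0.347) that was 0.32 without Holstein 3. CPT2, the inner carnitine palmitoyltransferase, had a difference of 0.47 (SE 0.22, adjusted p 0.423) with overlapping breeds, and 0.29 without Japanese Black 3. PPARD, a nuclear receptor of muscle fat use, had one of -0.34 (SE 0.18, adjusted p 0.457). The glucose transporter SLC2A4 had a difference of -0.45 (SE 0.31, adjusted p 0.546).

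**Figure D4:**
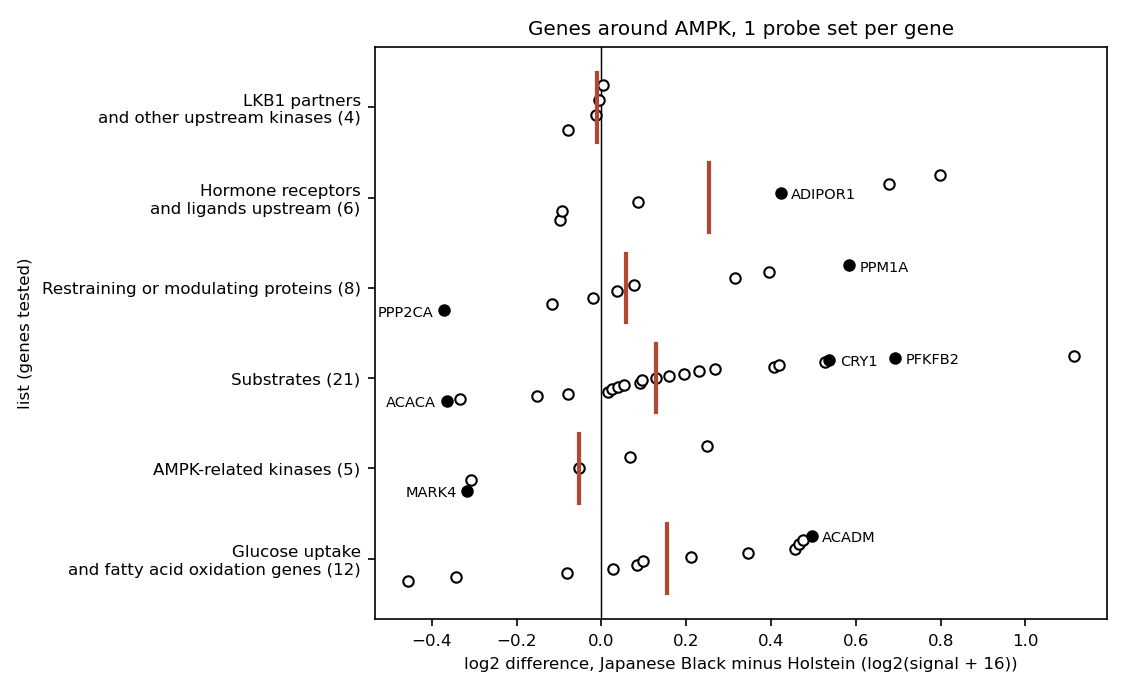
Log2 difference of Japanese Black minus Holstein (horizontal axis, log2(signal + 16)) of each tested gene of the 6 lists around AMPK (vertical axis, with the number of genes tested); filled and named points are genes whose breeds did not overlap, and red bars are list medians. The substrate list holds 17 genes above 0 and 4 below, where 48.7% of all genes tested lay above 0. The lists were chosen with earlier results of these data known, so these counts are descriptions. Of all genes shown 0 passed an adjusted p of 0.05.

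**Figure D5:**
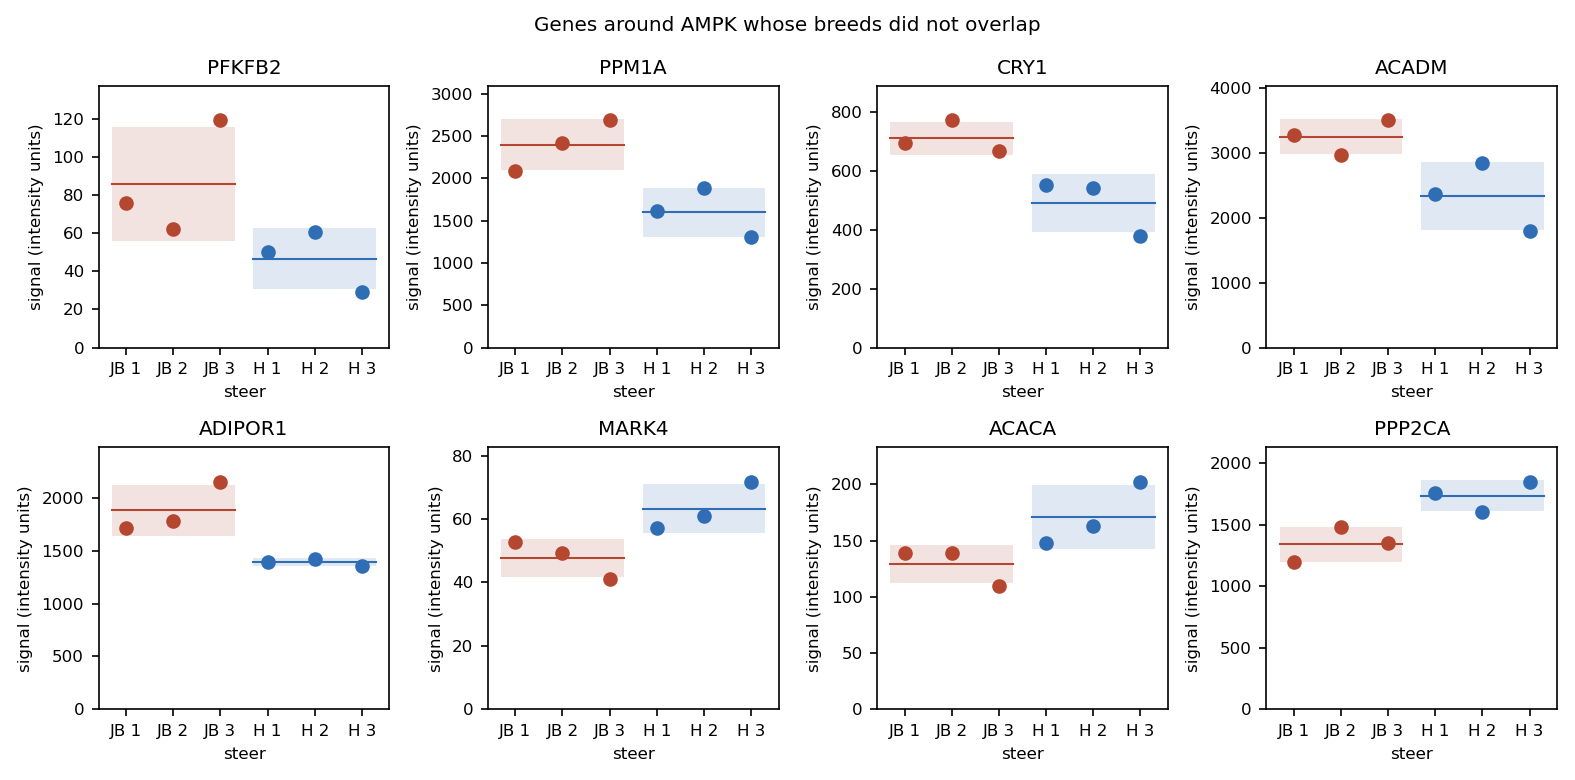
Signal in intensity units (vertical axes, from 0) of the 8 genes around AMPK whose breeds did not overlap at their brightest tested probe set, in each steer (horizontal axis; JB, Japanese Black; H, Holstein), with breed means as lines and 1 SD as bands. PFKFB2, PPM1A, CRY1, ACADM and ADIPOR1 lie higher in all 3 Japanese Black animals, and MARK4, ACACA and PPP2CA lower.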

How the data were processed

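Each array of the deposited table gives 1 linear intensity for a probe set. The submitters' processing notes name GCOS 1.1.1 with Affymetrix Expression Console 1.1; how the authors summarised and scaled the probes is not given in the sources used here. After removal of 112 control probe sets, 16 was added to each signal before log2, and the dimmest 25% of 24016 probe sets were not tested, which left 18012. Breeds were compared without pairing by limma 3.58.1 in R 4.3.3 (eBayes with an intensity trend, 4.91 prior degrees of freedom), two-sided; p-values were adjusted by Benjamini-Hochberg across the 18012 probe sets, with calls at 0.05. This step was checked on simulated data with normal noise. The spreads were those of these arrays, shuffled over probe sets, so any link of spread to signal was lost. The test called 0.896% of the probe sets given a log2 change of 0.5, 34.6% at 1 and 86.4% at 2, and 0.0124% of those given none. Changes near 0.5 were thus mostly not called. A paired t-test is named in the series design, but no pairs are given. Ratios were tested by exact permutation in scipy 1.17.1, with figures from matplotlib 3.10.9.

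Each pathway gene was represented by its tested probe set of highest mean. Up to 3 genes of smallest p per list were named, besides all subunit genes; ACACA and further genes given in a clause were named after their values were seen. Nearest genes were listed for the tested subunits because PRKAA2, PRKAB2, PRKAG3 and STK11, chosen first, had no tested probe set with their name. Symbols came from the platform annotation: 13292 probe sets had 1, 86 several and 10638 none. Gene coordinates and sequences are not given, since no build is named for the table. Members and lists were chosen with earlier results of these data known. Each animal counts as 1 replicate.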

Additional observations from a re-analysis of the deposited data

How the results depend on the processing

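Under the 22 alternatives 0 subunit probe sets passed; PRKAG1 had an unadjusted p under 0.05 in 2 matchings of the paired t-test, at 0.0455 and 0.0354. PRKAG1 was lower in Japanese Black in the 11 alternatives that could move its log2 difference, at -0.34 to -0.20; in the 10 others of 21 that difference is fixed by construction. Its adjusted p lay between 0.439 and 0.793 over all 21. With single animals left out, PRKAA1 ranged between -0.14 and 0.12 (positive without Japanese Black 1 or Holstein 1), PRKAB1 between -0.14 and 0.085 (positive without Japanese Black 1 or Holstein 3) and the ratio PRKAA2 minus PRKAA1 between -0.41 and 0.26 (positive without Japanese Black 2 or 3 or Holstein 3). PRKAB1 was 0.00059 with array weights, and the ratio was 0.026 with an offset of 64. The count of all probe sets called was 0 with an offset of 1, with the dimmer 50% left out, with the plain unpaired t-test and in 5 of the 6 matchings of a paired t-test, with 1268 to 2221 probe sets at an unadjusted p under 0.05 in these fits. It was 1 in the other matching, 7 at a threshold of 0.10 and 10 with array weights. With single animals left out it ranged between 0 and 15, at 0 whenever a Japanese Black animal was left out, 1 without Holstein 3 and 15 without Holstein 2. In the 6 lists 0 genes passed under any of 15 alternatives, and every list median moved by less than its spread between animals. With single animals left out the median of the AMPK-related kinases ranged between -0.13 and 0.025 (positive without Japanese Black 2 or Holstein 3), and that of the LKB1 partners between -0.057 and 0.031 (positive without Japanese Black 2, Japanese Black 3 or Holstein 3). Signs near 0 turned for STRADA (0.018 after quantile normalization, 0.0096 after median centring, 0.093 with array weights, -0.071 to 0.10 with single animals left out, positive without Japanese Black 3 or Holstein 3), STRADB (0.0050 with array weights, -0.21 to 0.016 with single animals left out, positive without Japanese Black 1 or Holstein 3) and TAB1 (0.0030 after median centring, -0.12 to 0.081 with single animals left out, positive without Japanese Black 1 or 2 or Holstein 3), and for MARK1 with single animals left out (-0.10 to 0.44, negative without Japanese Black 3). The cause was not tested. Each subunit gene has 1 probe set, so averaging over probe sets leaves its ratio as it is. No paired analysis was possible because no label pairs the animals; the matchings above are all those that 3 and 3 animals allow. Signals near background, as for PRKAA2, limit what can be measured.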
